A study of Homo sapiens with 4 samples.

Results

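The genes described here encode the proteins of the cytosolic ribosome. Membership was set by a rule on the symbol, with earlier results of these data known. The rule took the RPL and RPS genes, RPLP0, RPLP1, RPLP2, RPSA and 7 paralog genes (RPL3L, RPL10L, RPL39L, RPL22L1, RPL26L1, RPL7L1 and RPS27L). Pseudogenes were left out. This gave 84 of the 62696 genes counted, of which 77 are canonical ribosomal protein genes. The libraries came from OVCAR3, an established human line of high-grade serous ovarian carcinoma, grown in RPMI medium with fetal bovine serum. In 3 libraries (KD 1, 2 and 3, called Set 1 to 3 in the labels) a short hairpin RNA targets ANAPC1P2, the transcript of a pseudogene, and 1 library came from wild-type OVCAR3 cells (WT). No library is labelled as carrying a control hairpin. The labels do not say whether the knockdown sets were separate cultures, so the p-values reflect the spread of these libraries alone, and that spread may be technical.

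The cytosolic ribosome has a small (40S) subunit, which reads the mRNA, and a large (60S) subunit, which joins amino acids and carries the tunnel through which the new protein leaves. Each subunit is built on ribosomal RNA in the nucleolus from proteins needed in nearly equal numbers. The mRNAs of these proteins are among the most abundant in growing cells. Most belong to the TOP class, which starts with a C followed by a run of pyrimidines, and their translation is held back by LARP1 when mTOR signalling is low.

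Total RNA was depleted of ribosomal RNA before sequencing, so the values below concern the mRNAs of ribosomal proteins and not ribosomal RNA. The knockdown libraries held 42871815 to 56216398 counted reads and WT held 27868718. The targeted transcript ANAPC1P2 had 0, 11 and 8 reads in KD 1, 2 and 3 and 14 in WT at 1 identifier and none at the other. All 12 listed markers of serous ovarian carcinoma had reads in every library, and they summed to 118900, 132000 and 123800 normalized counts in KD 1, 2 and 3 and 567700 in WT. Of these markers 7 were above WT in all KD libraries and 5 were below WT in all. Markers of other cell types had reads in WT. The 8 erythroid markers summed to 14870 normalized counts in WT and to between 1.55 and 3.79 in KD, with HBB, HBA1, HBA2, HBD, AHSP and SLC4A1 at 0 in all KD libraries. The 10 leukocyte markers summed to 1305 in WT and to between 252 and 339 in KD, with LYZ, CD68 and FCGR3B at 0 there. The 12 neural markers summed to 6378 in WT and to between 5679 and 6455 in KD, with NEUROD6 and NEFL among those at 0 in KD. All KD libraries were below WT for 8 of the 8 erythroid, 10 of the 10 leukocyte and 9 of the 12 neural markers. The part of these other transcripts in the differences below was not tested. In bulk RNA, fewer cells of a type and less RNA per cell cannot be told apart.

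The start of transcription is shown first because it is the sequence feature that most of these genes share. RefSeq promoter sequences (GRCh38.p14) were matched for 67 of the 84 genes. An annotated start with a C followed by at least 4 pyrimidines was found for 47 of them (70.1%), against 5.1% of all 27305 genes in the promoter table. Below, 45 bases before the start and the first 15 transcribed bases are printed 5′ to 3′, with the unbroken run of C and T from the first transcribed base in capitals. Where RefSeq annotates several starts, one with such a run is shown if there is one. The first lines are genes of both subunits, from the largest rise (RPL34) to the smallest (RPL41).
RPL34 (chr4:108620531-108620590, plus strand): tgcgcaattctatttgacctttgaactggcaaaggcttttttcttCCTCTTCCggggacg
RPS3A (chr4:151099583-151099642, plus strand): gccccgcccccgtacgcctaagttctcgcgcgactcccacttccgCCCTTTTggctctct
RPS25 (chr11:119018329-119018388, minus strand): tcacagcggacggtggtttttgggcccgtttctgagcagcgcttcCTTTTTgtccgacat
RPSA (chr3:39406675-39406734, plus strand): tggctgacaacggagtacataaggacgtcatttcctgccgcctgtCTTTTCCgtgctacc
RPS6 (chr9:19380222-19380281, minus strand): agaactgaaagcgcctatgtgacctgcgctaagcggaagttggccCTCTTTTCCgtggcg
RPLP0 (chr12:120201097-120201156, minus strand): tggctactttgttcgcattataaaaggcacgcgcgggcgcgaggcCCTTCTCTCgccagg
RPLP2 (chr11:809922-809981, plus strand): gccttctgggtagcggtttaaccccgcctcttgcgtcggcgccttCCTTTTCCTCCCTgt
RPLP1 (chr15:69452773-69452832, plus strand): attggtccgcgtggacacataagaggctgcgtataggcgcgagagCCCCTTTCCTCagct
RPS19 (chr19:41860210-41860269, plus strand): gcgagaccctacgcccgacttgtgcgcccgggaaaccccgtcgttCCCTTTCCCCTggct
RPL41 (chr12:56116588-56116647, plus strand): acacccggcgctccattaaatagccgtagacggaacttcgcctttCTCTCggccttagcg
The next 3 genes also start with such a run and were counted at low levels that did not rise.
RPL36A (chrX:101390966-101391025, plus strand): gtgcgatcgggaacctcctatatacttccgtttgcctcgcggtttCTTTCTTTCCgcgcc
RPS10 (chr6:34426055-34426114, minus strand): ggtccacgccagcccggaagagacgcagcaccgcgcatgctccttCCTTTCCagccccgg
RPL26 (chr17:8383179-8383238, minus strand): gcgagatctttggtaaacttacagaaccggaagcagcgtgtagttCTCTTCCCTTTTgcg
Of the paralogs, RPL22L1 keeps the run that RPL22 has, while RPL26L1, RPS27L and RPL7L1 have none at their annotated starts (1 of 2 starts is shown for RPL26L1).
RPL22 (chr1:6199581-6199640, minus strand): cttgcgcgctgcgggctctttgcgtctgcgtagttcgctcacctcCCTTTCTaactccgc
RPL22L1 (chr3:170870181-170870240, minus strand): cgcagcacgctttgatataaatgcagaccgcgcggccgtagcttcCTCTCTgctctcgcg
RPL26L1 (chr5:172958684-172958743, plus strand): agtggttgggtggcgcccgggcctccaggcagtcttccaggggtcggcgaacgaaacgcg
RPS27L (chr15:63157463-63157522, minus strand): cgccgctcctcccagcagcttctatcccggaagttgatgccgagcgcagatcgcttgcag
RPL7L1 (chr6:42879571-42879630, plus strand): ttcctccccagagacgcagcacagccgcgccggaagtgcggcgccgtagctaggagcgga
Within the 300 bases from 250 before to 50 after a start, the core of ETS factor sites (CCGGAA, either strand) was present for 58.2% of the matched genes and 20.1% of all genes. The GC box (GGGCGG, either strand) was present for 58.2% and 48.3%, and the TATA box (TATAAA, either strand) for 10.4% and 14%. These are letter matches and not measured binding. Among canonical genes without strong exon overlap (defined below), the median log2 difference was 2.07 for the 43 with the pyrimidine run and 2.06 for the 15 with another annotated start. The difference between these medians was not tested.

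Ribosomal protein mRNAs took a larger share of the reads in every knockdown library than in WT. They held 5.45%, 4.92% and 5.11% of all reads counted in KD 1, 2 and 3, against 1.68% in the WT library (exact 95% binomial interval 1.68% to 1.69%, counting error only). The KD mean was 5.16% ± 0.27 (SD, n = 3), or 3.07 times the WT share. Genes of the 40S subunit went from 0.771% to 2.68% ± 0.146 and genes of the 60S subunit from 0.911% to 2.48% ± 0.127. The 40S genes held 45.9% of all ribosomal protein reads in WT and 51.5% to 52.3% in KD. RPS2 alone held 8.38% of them in WT and 15.2% to 16.1% in KD. Without RPS2 the family's share of all reads was 4.36% ± 0.234 in KD and 1.54% in WT. A permutation of 3 libraries against 1 cannot give a one-sided p below 0.25, and no other test was run on these shares.

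**Figure D1:**
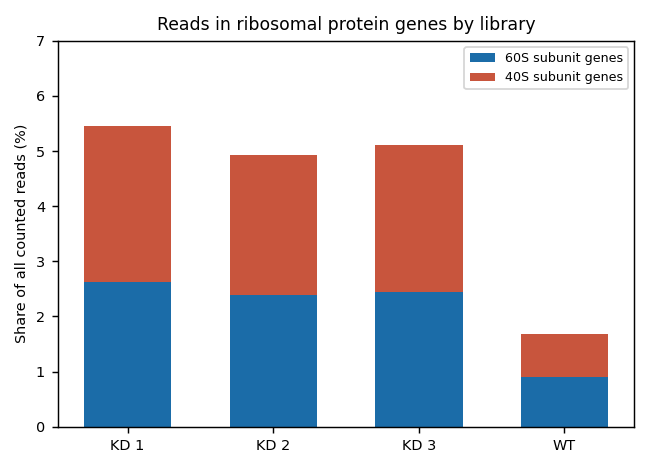
Share of all counted reads (%, y axis) that fell in ribosomal protein genes in each library (x axis), with 60S genes below and 40S genes above in each bar. The 3 knockdown bars reach 4.92% to 5.45% and the WT bar 1.68%.

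Gene by gene, nearly the whole family was higher in knockdown. The values are the deposited normalized read counts, means are given ± SD over the 3 KD libraries, and WT has no replicate. Of the 84 genes, 82 passed the filter of a mean of at least 10 normalized counts. Of these, 75 rose, 2 fell and 5 were not called (limma on log2 of the value + 1, Benjamini-Hochberg adjusted p under 0.05 over all 23344 genes tested). Among all genes tested, 31.4% were called higher, 36.3% lower and 67.7% in either direction. For protein-coding genes the shares were 45.9% and 24.7%. The median log2 difference was 1.99 over the 82 genes, with a middle range of 1.57 to 2.42, against -0.28 over all genes tested and 0.28 over protein-coding genes. All 3 KD libraries stood above WT for 76 genes (background 40%) and below WT for 4.0 (background 52.2%). The scaling between libraries shifts all log2 differences and can change the call of single genes near 0. With equal library totals the family's median was 1.43 and the log2 difference of RPS2 2.50. On the deposited scale, used for all fold values below, they were 1.99 and 3.06. With equal library totals the median of all genes moved from -0.28 to -0.84 and the share of calls that were higher from 46.4% to 27.5%. With median-of-ratios scaling that share was 56.9% and with DESeq2 56.6%. Of the 82 genes, 74 to 76 were called higher under the scalings and count tests tried.

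**Figure D2:**
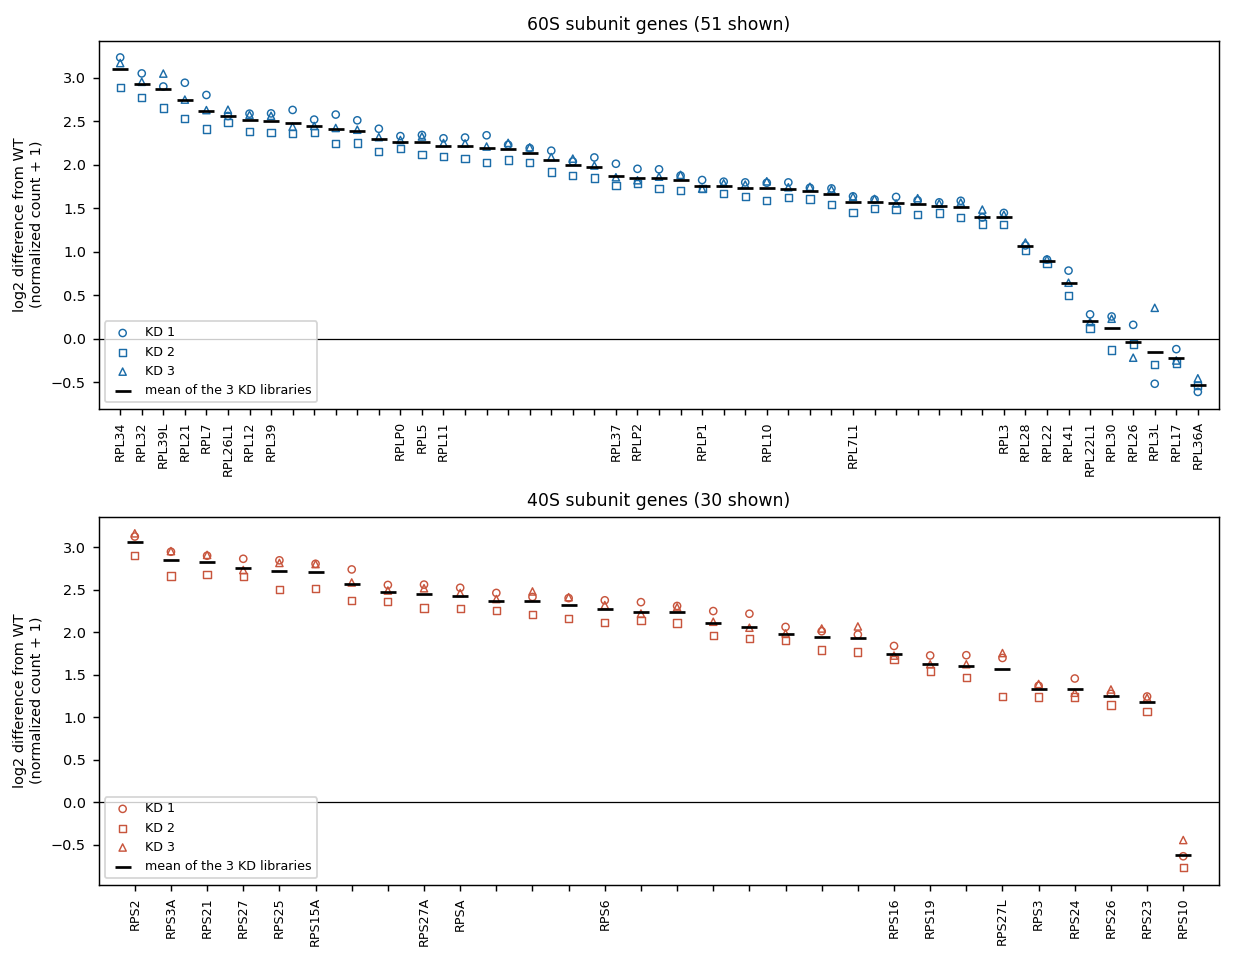
Log2 difference from WT (y axis, on the scale of normalized count + 1) of tested ribosomal protein genes (x axis, ordered by the mean, with those named in the text labelled), with 1 open symbol per knockdown library and a black bar for their mean. All but 1 of the 40S genes lie above 1, and the 60S panel ends in a group of genes at or near 0.

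In the small subunit, 29 of 30 canonical genes tested rose and 1 fell. Their median log2 difference was 2.25. RPS2, which lines the channel where mRNA enters, had the highest level per kilobase of coding sequence in KD. It stood at 380850, 326178 and 390914 normalized counts in KD 1, 2 and 3 and 43647 in WT. The KD values do not overlap WT, and the mean was 8.38-fold higher (log2 difference 3.06 ± 0.25 (SE), limma adjusted p = 1.25e-04). RPS3A, RPS21, RPS27, RPS25 and RPS15A were between 6.56-fold and 7.26-fold higher. RPS6, the substrate of the S6 kinases, stood at 96855, 81057 and 93171 normalized counts in KD 1, 2 and 3 and 18670 in WT, a 4.84-fold rise. RPSA, also known as the laminin receptor, rose 5.37-fold (47966 ± 4082 against 8931). RPS27A, which is made as a fusion with ubiquitin, rose 5.5-fold (15099 ± 1502 against 2746). RPS19, mutated in Diamond-Blackfan anaemia, rose less, at 8154, 7190 and 7588 normalized counts in KD 1, 2 and 3 and 2465 in WT (log2 difference 1.63 ± 0.11 (SE), limma adjusted p = 7.89e-05). The smallest rises of the subunit were those of RPS23, a protein of the decoding centre, at 3047 ± 203 against 1343, RPS26, of the mRNA exit channel, at 4390 ± 284 against 1846, RPS24 at 12676 ± 1018 against 5044 and RPS3, of the mRNA entry channel, at 53310 ± 3030 against 21151. For each of these genes the lowest KD library was above WT.

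In the large subunit, 42 of 46 canonical genes rose, 1 fell and 3 were not called, with a median of 1.85. RPL34 had the largest rise of the family, at 42026, 33048 and 40191 normalized counts in KD 1, 2 and 3 and 4458 in WT (8.62-fold, log2 difference 3.10 ± 0.16 (SE), limma adjusted p = 6.57e-05). It lies at chromosome 4, 108620566 to 108630412 (GENCODE 29, GRCh38). RPL32 followed at 58898, 48684 and 55077 normalized counts in KD 1, 2 and 3 and 7096 in WT (7.64-fold). RPL21 and RPL7 were 6.75-fold and 6.17-fold higher, and RPL39, a small protein of the exit tunnel, 5.71-fold. The difference between the subunits' medians was not tested. RPL5 and RPL11 bind 5S ribosomal RNA and, when not built into ribosomes, inhibit MDM2. RPL5 stood at 43578, 37313 and 43055 normalized counts in KD 1, 2 and 3 and 8581 in WT and RPL11 at 16574, 14372 and 15960 normalized counts in KD 1, 2 and 3 and 3351 in WT. The 2 genes rose by nearly the same factor, 4.82-fold and 4.67-fold. The stalk proteins, which recruit elongation factors, all rose. RPLP0, the base of the stalk, stood at 47481, 43036 and 46025 normalized counts in KD 1, 2 and 3 and 9435 in WT (log2 difference 2.27 ± 0.13 (SE), limma adjusted p = 6.64e-05). RPLP1 stood at 17833 ± 723 against 5265 (log2 difference 1.76 ± 0.11 (SE), limma adjusted p = 7.03e-05) and RPLP2 at 3184 ± 202 against 879.7 (log2 difference 1.85 ± 0.11 (SE), limma adjusted p = 6.72e-05). RPL12, which binds at the foot of the stalk, was 5.74-fold higher. RPL10, one of the last proteins to join the subunit, and RPL3, close to the catalytic centre, were 3.33-fold and 2.63-fold higher.

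The smallest called rises were in 60S genes. RPL41 encodes the shortest ribosomal protein and stood at 4855, 3992 and 4408 normalized counts in KD 1, 2 and 3 and 2821 in WT, 1.57-fold higher (log2 difference 0.64 ± 0.13 (SE), limma adjusted p = 0.00506). Its call was lost with equal library totals (log2 difference 0.08, limma adjusted p = 0.509) and with no filter (adjusted p = 0.0645). RPL22 stood at 4789, 4634 and 4799 normalized counts in KD 1, 2 and 3 and 2548 in WT (log2 difference 0.90 ± 0.09 (SE), limma adjusted p = 3.06e-04). RPL28 stood at 11276 ± 349 against 5387, 2.09-fold higher. RPS23 and RPS26 came next among the called genes, so the 5 smallest called rises ran from 1.57-fold to 2.38-fold, below the family's lower quartile.

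A small set of canonical genes did not rise, and most of it shares exons with a neighbouring gene. RPS10 was lower in KD, at 216, 197 and 247 normalized counts in KD 1, 2 and 3 and 337 in WT (log2 difference -0.62 ± 0.20 (SE), limma adjusted p = 0.0312), and RPL36A at 346, 364 and 386 normalized counts in KD 1, 2 and 3 and 529.8 in WT (log2 difference -0.54 ± 0.15 (SE), limma adjusted p = 0.0171). Both lost the call with TMM and median-of-ratios scaling, with DESeq2 and without KD 1, and RPS10 also without KD 2 and with no filter (limma or DESeq2 adjusted p from 0.0547 to 0.204). RPL17, of the exit tunnel, stood at 291, 260.3 and 266 normalized counts in KD 1, 2 and 3 and 317 in WT without a call (log2 difference -0.22 ± 0.17 (SE), limma adjusted p = 0.278). RPL26 stood at 716, 614 and 550.3 normalized counts in KD 1, 2 and 3 and 641 in WT, with WT inside the range of KD (log2 difference -0.04 ± 0.17 (SE), limma adjusted p = 0.839). In GENCODE 29, exons of another gene on the same strand cover 81.2% of the principal transcripts of RPS10, 77.6% of RPL36A, 59.2% of RPL17 and 36.6% of RPL26. For RPS10, RPL36A and RPL17 the other gene includes a readthrough locus (RPS10-NUDT3, RPL36A-HNRNPH2 and RPL17-C18orf32), and each of these had 0 reads in all 4 libraries. Reads in exons common to 2 genes are dropped by some counting settings, and the sources used here do not state the setting. The files list more recent gene identifiers than GENCODE 29, so the overlaps at counting may differ.

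No other canonical gene tested had such an overlap of 30% or more, a boundary chosen after the values were seen. Of the 72 below it, 71 rose and RPL30 was not called, and of the 65 with no overlap 64 rose. These 4 overlapped genes were also the lowest of the tested canonical genes in level per kilobase of coding sequence apart from RPL30. Their KD means ran from 444 to 1440 normalized counts per kilobase, against 1253 (RPL30) to 416360 in genes with none. In WT the ranges were 573 to 1666 and 1146 to 63976. RPL30, which binds its own transcript in yeast, stood at 472, 361 and 464 normalized counts in KD 1, 2 and 3 and 395 in WT (log2 difference 0.12 ± 0.19 (SE), limma adjusted p = 0.603). It has no same-strand overlap in GENCODE 29, and exons of genes on the other strand cover 39.3% of its principal transcripts. Other genes with opposite-strand overlap rose, such as RPL10 with 64.2% and RPS25 with 36.6%. The part of the counting in these values was not tested.

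**Figure D3:**
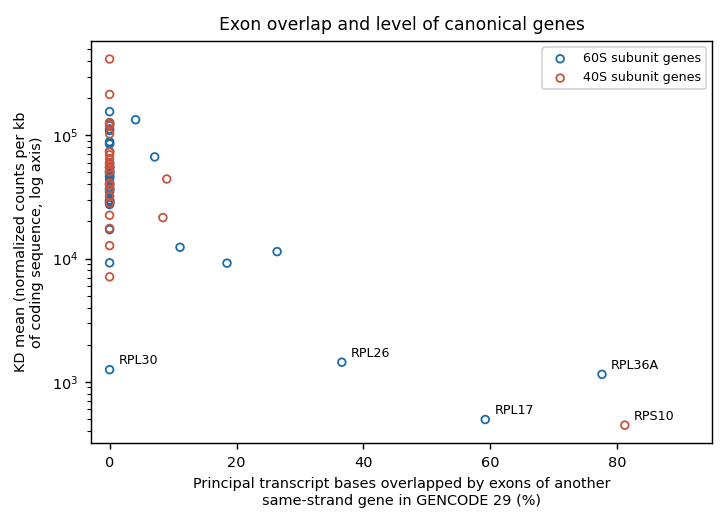
Mean of the 3 knockdown libraries (y axis, normalized counts per kilobase of coding sequence, log axis) for 75 canonical genes against the share of principal transcript bases covered by exons of another same-strand gene in GENCODE 29 (x axis, %). The 4 genes at 36.6% or more lie between 444 and 1440, and RPL30 is the one gene as low at 0%.

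The paralogs, encoded by separate genes with near-identical or divergent copies of a ribosomal protein, differed in their response. Together they held 1.04% of ribosomal protein reads in WT and 0.647% to 0.673% in KD. RPL39L, known from testis and some tumours, rose 7.4-fold, at 1003, 844 and 1112 normalized counts in KD 1, 2 and 3 and 133 in WT (log2 difference 2.87 ± 0.18 (SE), limma adjusted p = 6.98e-05). Per kilobase of coding sequence it was at 4.79% to 5.52% of RPL39 in KD and 3.92% in WT. RPL26L1 rose 5.93-fold, at 1475, 1403 and 1551 normalized counts in KD 1, 2 and 3 and 249 in WT. It was counted at 206% to 282% of RPL26 per kilobase in KD and 38.8% in WT, but RPL26 is one of the overlapped genes above. RPL7L1, a copy linked to ribosome assembly, stood at 11098 ± 791 against 3718 and RPS27L, a p53 target, at 863 ± 157 against 288, 2.98-fold and 3-fold higher. Their parents RPL7 and RPS27 rose more, 6.17-fold and 6.75-fold, so each paralog's level per kilobase fell relative to its parent. For RPS27L it was 19.4% of RPS27 in WT and 7.28% to 9.86% in KD, and for RPL7L1 53.9% of RPL7 and 24% to 27.7%. These ratios carry no test. They use coding bases alone, and both paralogs have longer principal transcripts than their parents. RPS27L has 6434 bases against 359 in RPS27, and RPL7L1 a median of 4122.5 against 1101 in RPL7. The percentages of these 2 paralogs may thus be overstated, while their change between WT and KD does not depend on the length used.

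RPL22L1, whose splicing and level RPL22 protein is known to restrain, was not called, at 1181, 1060 and 1111 normalized counts in KD 1, 2 and 3 and 973 in WT (log2 difference 0.20 ± 0.11 (SE), limma adjusted p = 0.159). It was called higher with TMM scaling (log2 difference 0.43, limma adjusted p = 0.0116) and lower with equal totals (-0.36, adjusted p = 0.0178), so its direction rests on the scaling. Relative to RPL22 per kilobase it stood at 40.1% in WT and 24% to 25.9% in KD, a ratio that does not depend on scaling. RPL3L, the form found in heart and skeletal muscle, stood at 49.3, 57.5 and 91.2 normalized counts in KD 1, 2 and 3 and 71.1 in WT with WT inside the KD range (log2 difference -0.16 ± 0.42 (SE), limma adjusted p = 0.756). The testis gene RPL10L had 0 reads in all 4 libraries, which allows up to 3 reads in each. Reads shared between a paralog and its parent, or with their processed pseudogenes, may have been divided between them or lost in counting.

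Levels of different genes are compared per kilobase of the coding sequence of the principal transcript in GENCODE 29. On this scale RPS2 ranked first in KD and RPS16, which touches the tRNA in the decoding site, first in WT. RPS2 stood at 416360 in KD and 49655 in WT and RPS16 at 214950 in KD and 63976 in WT. RPL37 held the third rank in both, at 155809 in KD and 42306 in WT. RPL41 held the fourth rank in WT and lower in KD, at 58909 in KD and 37616 in WT, and RPL34 moved the other way, at 109463 in KD and 12702 in WT. RPL32, RPL39, RPS25 and RPS18 held ranks 4 to 7 in KD, and their means lay within 1 SD of each other. A coding sequence as short as that of RPL41 (75 bases) leaves out most of the mRNA, so its level per kilobase is overstated. The principal transcript of RPL37 has 7686 bases, of which 291 are coding. The rank of RPL37 thus also rests on the choice of length. In KD the lowest levels among the tested genes were those of the overlapped genes, RPL30 and the paralogs other than RPL7L1. In WT RPLP2 (2550) was lower than the paralog RPL22L1 (2658).

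**Figure D4:**
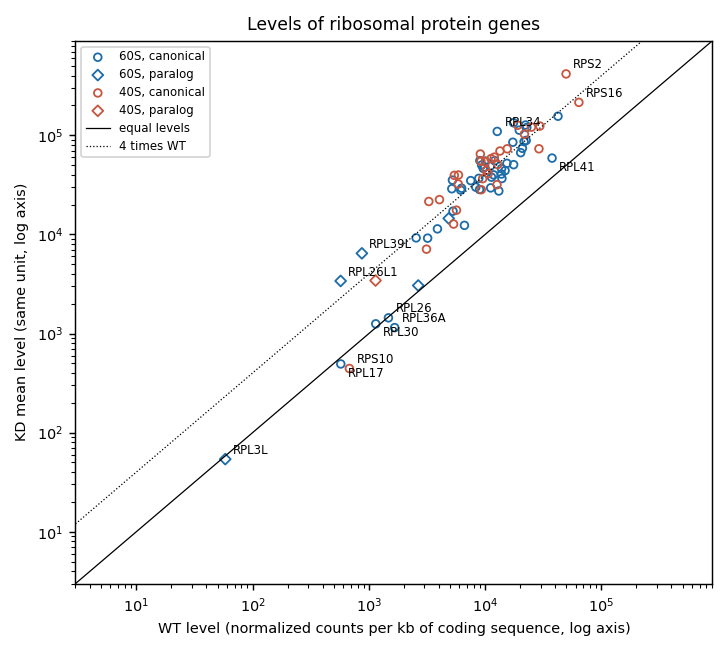
Mean level in the 3 knockdown libraries (y axis) against the WT level (x axis), both in normalized counts per kilobase of coding sequence on log axes, for 81 tested genes. The solid line marks equal levels and the dotted line 4 times the WT level. Of the genes shown, 75 have all 3 knockdown libraries above WT, and most of them lie near the dotted line.

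Among the knockdown libraries, KD 2 had the lowest value for most of the family. Of the 81 genes with a KD mean of at least 100 normalized counts, 79 were lowest in KD 2, and 56 were highest in KD 1, against 50.8% and 27.8% of all 12766 genes at that level. As shares of each library's reads, 55 were lowest in KD 2 and 24 in KD 3, and 71 were highest in KD 1, with 27.8%, 33.7% and 30.9% over all genes at that level. The median deviation from the KD mean was 0.08, -0.12 and 0.04 on the log2 scale in KD 1, 2 and 3, and 0.08, -0.06 and -0.02 as shares of each library's reads. For the 74 ribosomal protein genes with a KD mean of at least 1000, the coefficient of variation had a median of 7.61% (range 1.95% to 14.1%), against 6.52% over all 7343 genes at that level. These shifts are small beside the difference from WT.

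Gene length and level moved with the difference in all protein-coding genes. Over other protein-coding genes, the median log2 difference was 0.83 at an exonic length under 1 kb and 0.85 at 1 to 2 kb. It was 0.57 at 2 to 4 kb, 0.26 at 4 to 8 kb and -0.08 above 8 kb. The ribosomal protein genes had medians of 2.47 (1 gene), 2.31 (12), 2.21 (41), 1.71 (24) and 2.04 (4) in the same classes. By mean level, other protein-coding genes had a median of 0.66 from 1000 to 10000 normalized counts and 0.97 above, and ribosomal protein genes 1.59 (20 genes) and 2.20 (54 genes). From 100 to 1000 normalized counts the medians were 0.06 in the other genes and -0.04 in 7 ribosomal protein genes. From 10 to 100 the other genes had a median of -1.17, and the 1 ribosomal protein gene there had -0.16. The mean level was taken over all 4 libraries, 3 of them KD. A gene higher in KD is thus moved to a higher class, and the trend with level is partly built in. The part of length and level in the family's difference was not tested. Across the 72 canonical genes below the overlap boundary, Pearson's r of the difference with log2 exonic length was -0.22, with the number of pseudogene entries 0.25 and with the WT level per kilobase 0.14. These are descriptions across genes, which are not independent and share the same 4 libraries.

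**Figure D5:**
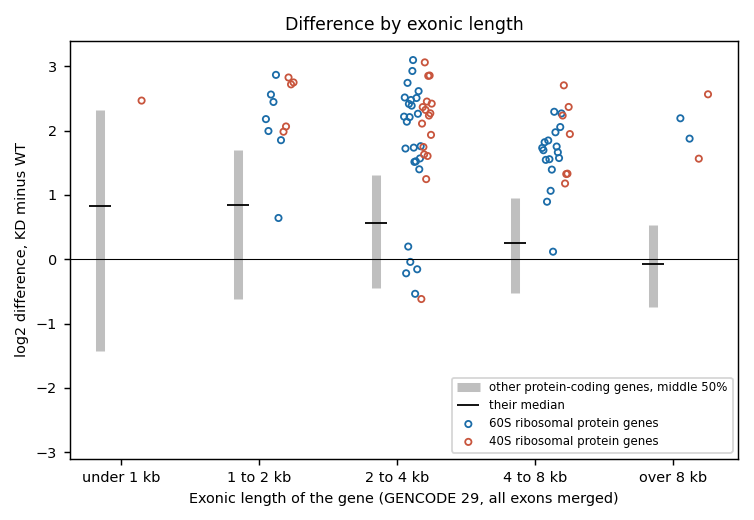
Log2 difference between knockdown and WT (y axis) by exonic length (x axis, all exons of a gene merged). Grey bars give the middle 50% and black lines the median of other protein-coding genes, and open circles are single ribosomal protein genes. Class medians of the ribosomal protein genes run from 1.71 to 2.47 and those of the other genes from -0.08 to 0.85. The value of 2.47 is that of the 1 ribosomal protein gene under 1 kb.

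Further genes of the ribosome and its production moved the same way, and their counts stand beside the backgrounds of 31.4% called higher among all genes tested and 45.9% among protein-coding genes. Ribosome components outside the symbol rule all rose (4 of 4, median 2.12). FAU, a ubiquitin-like protein fused to a 40S protein, stood at 6087 ± 598 against 1324, RPL36AL, a close copy of the overlapped RPL36A, at 2403 ± 173 against 582, and RACK1, a signalling scaffold on the 40S subunit, at 83234 ± 4514 against 23377. Of 60 listed ribosome biogenesis genes, 54 rose, 2 fell and 4 were not called, with a median of 1.38. The largest rises were those of RSL24D1, a 60S assembly factor, at 6.55-fold, NOP10, of the pseudouridylation complex, at 5.64-fold, RPF2, which brings in the 5S particle, at 5.24-fold and the nucleolar protein NPM1 at 5.15-fold. MDN1, a very large remodelling enzyme of the 60S precursor, fell, at 5071 ± 313 against 10669 (log2 difference -1.07), as did LAS1L, at 3067 ± 71 against 3704 (-0.27). The call of LAS1L was lost with TMM and median-of-ratios scaling, edgeR and DESeq2 and without KD 1 or KD 2, and its sign turned with median-of-ratios scaling (0.0069). Of 22 other genes with TOP mRNAs, 3 of which are also listed above as ribosome components and 1 as a biogenesis gene, 21 were tested and all 21 rose, with a median of 1.59. Apart from those 4, the largest rises were those of EEF1B2, of an elongation factor, at 7.04-fold and EIF3E, of an initiation factor, at 4.81-fold. EEF1G was not tested, with no read in KD and 1 read in WT.

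For regulators of ribosome production the count depended on the scaling. Of 14 listed, 11 rose, 1 fell and 2 were not called, with a median of 0.68, on the deposited scale. There 31.4% of all genes tested and 45.9% of protein-coding genes were called higher. The median was near the 0.66 of other protein-coding genes with a mean of 1000 to 10000 normalized counts. With equal library totals 4 rose and 2 fell, with a median of 0.12. Of all 23344 genes tested, 4746 were then called higher and 12509 lower. EIF4EBP1, which blocks the cap-binding protein, and EIF4E, that protein itself, were 4.26-fold and 4.18-fold higher. MAF1, a repressor of RNA polymerase III, was 2.96-fold higher and MYC, a driver of ribosomal gene transcription, 2.07-fold, at 1900, 1877 and 2133 normalized counts in KD 1, 2 and 3 and 952 in WT (log2 difference 1.05 ± 0.11 (SE), limma adjusted p = 4.11e-04). RPTOR, a subunit of mTOR complex 1, fell, at 1138, 1317 and 1408 normalized counts in KD 1, 2 and 3 and 1887 in WT (log2 difference -0.56 ± 0.14 (SE), limma adjusted p = 0.0126). Its call was lost with TMM and median-of-ratios scaling (limma adjusted p = 0.0629 and 0.102) and with no filter (0.0982). MTOR and MYCN were not called.

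Pseudogenes of these genes, picked by symbol, went the other way as a share of reads. Over 1411 pseudogene entries named after a member, the share was 0.0361% ± 0.00286 of the reads counted in KD libraries and 0.0819% of those in WT, a ratio of 0.441. In WT 36832 genes of any kind had reads, against 31014 to 32823 in the KD libraries, despite its lower depth.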

How the data were processed

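RNA of 4 OVCAR3 libraries (3 KD, 1 WT) was analysed from one deposited table of normalized read counts per library. The authors' values are a signal that is not whole: gene counts divided by a library factor. Alignment with STAR 2.7.11b, counting with featureCounts 2.0.6, DESeq2 and the hg38 build are named in the submitters' processing notes. The strand setting and the handling of overlapping genes and multiply mapped reads were not stated in the labels or notes, so reads of overlapping, antisense and near-identical genes may be missing or misassigned. Dividing by each library's smallest step gave whole reads for 100% of values (within 0.001), and these recovered reads gave the depths and shares.

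Differences were tested with limma 3.58.1 in R 4.3.3 (trend, two-sided) on log2 of the deposited value + 1, for 23344 genes with a mean of at least 10, with Benjamini-Hochberg adjustment over all of them and a threshold of 0.05. This scale understates the change of low genes. Spread came from the KD libraries alone, and the lone WT library was assumed to vary like them. The procedure was checked on simulated data in which WT varied like the KD libraries, so this check could not test that assumption. Alternatives were 3 other scalings, pseudocounts of 0.5 and 5, no filter, a mean of at least 50, protein-coding genes alone, edgeR 4.0.16 and DESeq2 1.42.0 on recovered reads, and leaving out each KD library.

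The genes and lists were chosen with earlier results of these data known. By rule, the text names the members not called higher or not tested, the 5 largest and 5 smallest called differences, the stalk and 5S particle genes, RPSA, RPS27A, RPL41, RPS6, RPS19, the paralog pairs, and up to 4 genes of each list in each direction. Some genes under this rule are not reported here. RPS3A, RPS21, RPS25, RPS15A, RPS3, RPS16, RPS23, RPS24, RPS26, RPL12, RPL21, RPL37, MTOR, MYCN and EEF1G were named after their values were seen. Gene overlaps and lengths came from GENCODE 29 (GRCh38), which held 92.9% of the identifiers, and promoters from RefSeq (GRCh38.p14). Confidence intervals are exact binomial ones and cover counting error only.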

Additional observations from a re-analysis of the deposited data

How the results depend on the processing

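The number of ribosomal protein genes called higher stayed between 74 and 76 under every alternative listed under processing. The number called lower was 5 with equal library totals, 0 with TMM scaling, median-of-ratios scaling and DESeq2, 1 with no filter, and 0 to 2 when each KD library was left out. Their median log2 difference was 1.43 with equal totals, 2.22 with TMM, 2.27 with median-of-ratios and 2.17 with DESeq2. The ratio of their read share, KD over WT, ran from 2.98 to 3.14 when each KD library was left out, and was 2.94 as a share of nuclear protein-coding reads. Over all genes, 4746 were called higher with equal totals, 5086 lower with a mean of at least 50 and 3710 lower among protein-coding genes. Of the biogenesis genes, 5 were called lower with equal totals, 1 with TMM, median-of-ratios, edgeR and DESeq2, and 1 to 2 when each KD library was left out. With no filter 1 TOP gene was called lower, EEF1G, which had no read in KD and 1 read in WT. Signs turned for genes near 0: RPL22L1 (-0.36) and RPL30 (-0.44) with equal totals, RPL17 with TMM (0.0129) and median-of-ratios (0.0605), LAS1L with median-of-ratios (0.0069), RPL26 with TMM (0.19), median-of-ratios (0.24), edgeR (0.0727), DESeq2 (0.15) and without KD 3 (-0.14 to 0.0485 over the libraries left out), and RPL3L with TMM (0.0728), median-of-ratios (0.12), DESeq2 (0.0657) and without KD 1 (-0.41 to 0.0267 over the libraries left out). Beyond what follows from scaling or from fewer genes or libraries, the cause was not tested. Of 793 values of 61 named genes under the alternatives, 753 kept their direction and side of the threshold, 20 lost the call, 6 gained one and 14 changed sign. The 1 WT library could not be left out, and it limits every difference here. No paired analysis was possible because WT has 1 library, so the groups share fewer than 2 replicate numbers.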
